A study of Ovis aries with 12 samples.

Results

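Sheep (Ovis aries) oviduct epithelial cells that had been in oestradiol for 3.5 h were compared with cells that had not received the hormone (0 h). The 3.5 h group held 3 libraries of cells treated with 10 nM oestradiol (E2, the main ovarian oestrogen), and the 0 h group 3 libraries without it. All 6 came from mucosal cells scraped after trypsin from the ampulla, the wide upper stretch of the oviduct, and all were kept for 12 h without serum and without phenol red before the treatment started. They were chosen by the time in their titles from 12 RNA-sequencing libraries in all, which also cover 1.5 and 5.5 h, and were paired by the number 1 to 3 that the titles carry. None of the 12 libraries was kept for 3.5 h without oestradiol, so the effect of the hormone and that of the time in culture cannot be told apart. The labels do not say whether the numbers stand for separate animals, cultures or extractions, so a p-value reflects no more than how far these libraries scatter, and that scatter may be technical. Of 18340 genes in the table, the 12025 with a mean of at least 1 FPKM (fragments per length of transcript and depth of library) over the 12 libraries were tested.

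Oestradiol enters cells and binds the nuclear receptors encoded by ESR1 and ESR2, which then bind DNA or other transcription factors and alter transcription, while a membrane-linked branch signals through kinases. In the oviduct the hormone is known for its hold over the secretory and ciliated cells that line the tube. Of the gene groups followed here, the cholesterol pathway is under the control of SREBP factors that respond to cell sterols, and immediate early genes are transcribed within minutes of growth factor signals. The clock-controlled PAR bZIP factors, to which TEF belongs, carry the rhythm of the circadian clock to their target genes, and mitotic genes are transcribed in cells that are about to divide.

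Counts in genes summed to 4.96e+07 to 5.51e+07 per library at 3.5 h, against 4.85e+07 to 7.94e+07 at 0 h. At these depths 3 counts, taken as the detection floor, came to at most 0.0619 CPM (counts scaled to library size), a limit set by counting error alone. The epithelial label was checked against EPCAM, CDH1, KRT7, KRT8 and KRT18, whose summed level was 8922 to 11144 FPKM at 3.5 h, against 9104 to 11478 FPKM at 0 h. Of the secretory markers PAX8, MUC1 and WFDC2 were present, while the oviductin gene OVGP1 stayed between 0.304 and 0.549 FPKM. The cilium regulator FOXJ1 was at 0 FPKM in all 3.5 h libraries, against 0 to 0.120 FPKM at 0 h, and the ciliated list, which summed to 34.7 to 57.8 FPKM at 3.5 h, against 36.7 to 79.0 FPKM at 0 h, was carried by TPPP3 and RSPH1. The T cell gene CD3E was at 0 in all 6 libraries, and the leukocyte gene PTPRC and the endothelial gene PECAM1 reached at most 0.121 and 0.201 FPKM. Other markers of these types were present: the macrophage gene CD68 lay at 10.3 to 16.4 FPKM at 3.5 h, against 8.60 to 16.8 FPKM at 0 h, and the endothelial genes VWF and CDH5 at 8.04 to 13.2 and 3.79 to 9.39 FPKM at 3.5 h, against 7.36 to 9.97 and 4.12 to 8.14 FPKM at 0 h. VIM, which stromal cells express but cultured epithelium does too, was high, at 781 to 1785 FPKM at 3.5 h, against 870.2 to 1615 FPKM at 0 h. The stromal gene COL1A1 lay at 1.98 to 9.39 FPKM at 3.5 h, against 1.65 to 9.59 FPKM at 0 h. Of the smooth muscle genes, ACTA2 lay at 7.17 to 26.5 FPKM at 3.5 h, against 5.39 to 14.0 FPKM at 0 h. CNN1 lay at 3.19 to 75.5 FPKM at 3.5 h, against 3.63 to 44.3 FPKM at 0 h. COL1A1, ACTA2 and CNN1 were lowest in number 3 at both times. PDGFRA, MYH11 and DES did not average 1 FPKM.

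The libraries numbered 3 stood apart at both times. On the first principal component of the 6 libraries, which held 57.0% of the variance, number 3 lay at 47.3 at 3.5 h and 52.6 at 0 h, while numbers 1 and 2 lay between −28.4 and −21.7. The second component, with 16.0%, was led by the 3.5 h library numbered 2 at −37.4. Differences were therefore taken within numbers, and the 3 pair values are given for each result that rests on 1 or 2 of them. In the fits over 12 libraries the 1.5 h library numbered 3 lay at 5.26 on a first component where the other libraries of its number lay at 49.98 to 57.1, so values of a fit to the 6 libraries alone are given where they change a call.

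No gene passed the test at 3.5 h against 0 h. edgeR's quasi-likelihood test with the number as a block called 0 of 12025 genes (0.0%) at an adjusted p under 0.05, and the smallest adjusted p was 0.328. At an unadjusted p under 0.05 there were 782 genes (6.5%), 410 higher and 372 lower, where 601 are given by chance. Without the block 0 were called and 260 (2.16%) had such a p. The differences were small: the median size was 0.11 on the log2 scale, 95% of genes lay within 0.52, and 140 genes (1.16%) differed by more than 1. Read counts of the same genes tested with DESeq2 and the same block gave 34 calls, 20 higher and 14 lower (0.283%), so the sentences below give both adjusted p-values where they fall on different sides of the threshold.

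TEF (ENSOARG00000018238; chromosome 3, 216504368 to 216525599), a transcription factor that acts downstream of the clock and binds D-box elements, was the named gene with the smallest p. Numbers 1, 2 and 3 had 21.01, 17.4 and 9.15 CPM at 3.5 h, against 10.2, 7.56 and 5.22 CPM at 0 h. Each 3.5 h library lay well above the 0 h library of its number, and the groups overlapped because number 3 was low at both times. The log2 difference was 1.02 ± 0.15 (SE), and edgeR did not pass it (adjusted p = 0.328), while DESeq2 did (adjusted p = 1.01e-05). With numbers 1 and 2 alone, a fit over the 4 times with 2 libraries at each, edgeR also called it (adjusted p = 0.0434).

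GJA5 (ENSOARG00000012149; chromosome 1, 97838727 to 97839806) encodes connexin 40, a subunit of the gap junction channels that join neighbouring cells. It had 19.6, 30.3 and 24.7 CPM at 3.5 h, against 6.53, 8.62 and 12.97 CPM at 0 h in numbers 1, 2 and 3. The groups did not overlap, and the pair differences were 1.58, 1.81 and 0.93, the smallest of them in number 3. The fitted log2 difference of 1.34 ± 0.52 did not pass (edgeR, adjusted p = 0.762, and DESeq2, adjusted p = 0.672), but numbers 1 and 2 alone passed it (edgeR, adjusted p = 0.0099). With 1 library left out the difference ranged from 0.99 to 2.11, the largest without the 0 h library numbered 3. The authors' deposited table gives it a log2 ratio of 1.38 and a q-value of 0.0322.

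MVK (ENSOARG00000014824), mevalonate kinase, is an early enzyme of the cholesterol pathway. It had 32.2, 28.8 and 36.1 CPM at 3.5 h, against 26.7, 20.2 and 27.05 CPM at 0 h, so that the lowest 3.5 h library lay above the highest 0 h one. The log2 difference was 0.40 ± 0.12 (edgeR, adjusted p = 0.728). SQLE (ENSOARG00000008478), squalene epoxidase, the first oxygen-requiring step of the same pathway, had 159, 146 and 218 CPM at 3.5 h, against 123, 111 and 175 CPM at 0 h. Its groups overlapped because number 3 was high at both times, and each pair was higher at 3.5 h, by 0.37, 0.39 and 0.32 (fitted difference 0.36 ± 0.16; edgeR, adjusted p = 0.765).

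PARP12 (ENSOARG00000012408), an interferon-inducible enzyme that attaches ADP-ribose to proteins, had 25.2, 22.9 and 24.3 CPM at 3.5 h, against 30.5, 34.3 and 32.3 CPM at 0 h. All 3.5 h libraries were lower than all 0 h libraries, with a log2 difference of −0.42 ± 0.095. edgeR did not pass it (adjusted p = 0.624) and DESeq2 did (adjusted p = 0.0437). With TEF, GJA5, MVK and SQLE it was named for this comparison with its values known. The counts of the gene lists include those of the 5 that are list members.

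**Figure D1:**
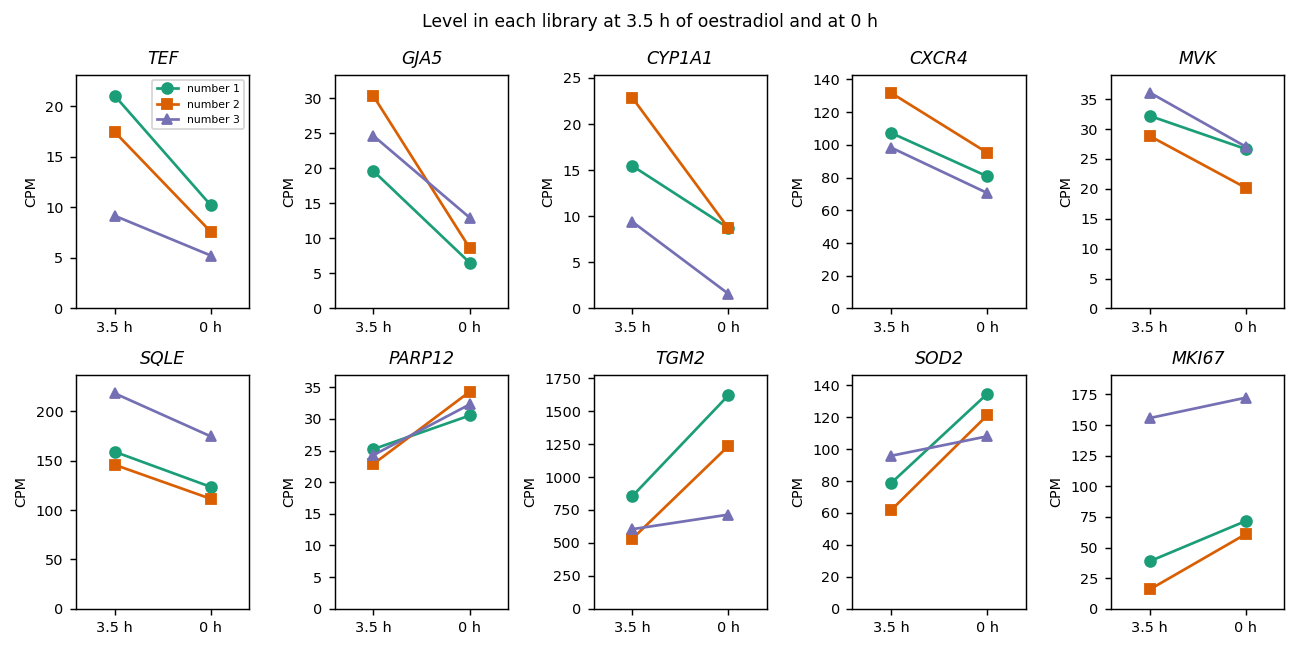
Level (CPM, counts scaled to library size, from 0) of 10 genes in the libraries at 3.5 h, left, and 0 h, right; each point is 1 library and a line joins libraries of the same number. Lines of all 3 numbers run down to the right for TEF, GJA5, CYP1A1, CXCR4, MVK and SQLE, while those of PARP12, TGM2, SOD2 and MKI67 run up, with number 3 flattest for TGM2 and SOD2.

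The receptors themselves were close to level. ESR1, the nuclear receptor for oestradiol, had 8.53, 11.4 and 14.3 CPM at 3.5 h, against 7.71, 9.60 and 17.9 CPM at 0 h, a log2 difference of −0.01 ± 0.21, with number 3 the highest at both times. ESR2 and GREB1, a growth-linked oestrogen target, did not reach the filter. The progesterone receptor gene PGR, a classical oestrogen target in the uterus and the oviduct, had 12.7, 10.9 and 12.8 CPM at 3.5 h, against 13.4, 10.9 and 12.2 CPM at 0 h, a difference of −0.01 ± 0.12. Among 10 tested receptors and partners 4 were higher and 6 lower, and 0 had an unadjusted p under 0.05. FOXA1, a pioneer factor that opens chromatin for the receptor, was the furthest from 0, at 0.32 ± 0.24.

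Genes known in breast or uterus as oestrogen-induced lay on both sides of 0. Of 20 listed, 16 were in the table and 10 were tested, and of those 3 were higher and 7 lower with a median of −0.12, where all genes had a median of −0.0011. The pair medians were 0.01, −0.13 and −0.10, and without the 0 h library numbered 3 the median was −0.004. None had an unadjusted p under 0.05. CCND1, the G1 cyclin, lay at −0.26 ± 0.12 and RARA, a retinoic acid receptor, at −0.16 ± 0.11, while XBP1, which drives secretory capacity, lay at 0.02 ± 0.086.

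Beyond TEF, the genes with the smallest p that were higher in all pairs included signalling and growth genes. CXCR4 (ENSOARG00000010462), the receptor of the chemokine CXCL12, had 107, 132 and 98.4 CPM at 3.5 h, against 80.8, 95.2 and 70.6 CPM at 0 h. The groups did not overlap, and the 3 pair differences, 0.41, 0.47 and 0.48, were nearly equal. Its log2 difference was 0.45 ± 0.094 (edgeR, adjusted p = 0.624; DESeq2, adjusted p = 0.0161). MXD1 (ENSOARG00000019742), which competes with MYC for its partner MAX, had 13.5, 15.7 and 13.7 CPM at 3.5 h, against 9.49, 10.9 and 9.19 CPM at 0 h, again without overlap and with pair differences of 0.51, 0.53 and 0.57. The fitted difference of MXD1 was 0.54 ± 0.12 (edgeR, adjusted p = 0.624; DESeq2, adjusted p = 0.0378).

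TNFAIP8L3 (ENSOARG00000000916), a carrier of phosphoinositide lipids, had 22.6, 33.7 and 26.8 CPM at 3.5 h, against 15.6, 26.7 and 16.9 CPM at 0 h. Number 2 was the highest at both times, which made the groups overlap, and all pairs were higher at 3.5 h (fitted difference 0.51 ± 0.089; edgeR, adjusted p = 0.605; DESeq2, 0.00192). RSRC2 (ENSOARG00000010564), which carries a stretch rich in arginine and serine, had 99.1, 104 and 138 CPM at 3.5 h, against 75.3, 80.4 and 94.4 CPM at 0 h without overlap (difference 0.44 ± 0.09; edgeR, adjusted p = 0.624; DESeq2, 0.0179). Groups without overlap were not common over the table: 3.57% of the tested genes had all 3.5 h libraries above all 0 h libraries and 3.19% had them below.

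The other 5 of the 10 were copies or genes without a symbol. ENSOARG00000001382 (chromosome 4, 110603406 to 110603984), annotated as a 60S ribosomal protein L9 copy, had 23.4, 26.7 and 27.4 CPM at 3.5 h, against 10.4, 12.7 and 13.8 CPM at 0 h and a log2 difference of 1.08 ± 0.15 (edgeR, adjusted p = 0.328; DESeq2, 7.41e-07). A second L9 copy, ENSOARG00000020156 (chromosome 9, 28105544 to 28106122), which is first by p in the authors' deposited table, had 35.9, 69.8 and 54.6 CPM at 3.5 h, against 8.92, 13.7 and 18.01 CPM at 0 h. It was the 1 gene called in a fit to the 6 libraries alone (0.00832% of the tested genes, edgeR, adjusted p = 0.033). Over the 12 libraries with the block it did not pass (edgeR, adjusted p = 0.720, and DESeq2, adjusted p = 0.165). ENSOARG00000000943, annotated as a pseudogene of the translationally controlled tumour protein, had 11.9, 14.5 and 42.04 CPM at 3.5 h, against 7.20, 3.69 and 8.47 CPM at 0 h, with number 3 at 3.5 h far above the rest (edgeR, adjusted p = 0.624; DESeq2, 1.93e-04). Such copies can share reads with their near-identical relatives, and their levels are uncertain. The unnamed ENSOARG00000012133 lay at 0.44 ± 0.093 (edgeR, adjusted p = 0.624; DESeq2, 0.0223). The low ENSOARG00000004995 and ENSOARG00000013385, none of whose libraries reached 2 CPM, lay at 1.89 ± 0.37 and 1.68 ± 0.35 (edgeR, adjusted p = 0.624 and 0.624; DESeq2, 0.0161 and 0.0437).

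Among the genes with the smallest p that were lower in all pairs, TGM2 had the highest count. TGM2 (ENSOARG00000018528), transglutaminase 2, which cross-links proteins of the matrix, had 854, 531 and 604 CPM at 3.5 h, against 1621, 1236 and 715 CPM at 0 h. Number 3 was already low at 0 h and differed least, with pair differences of −0.93, −1.22 and −0.24. The fitted difference was −0.80 ± 0.15 (edgeR, adjusted p = 0.624; DESeq2, 1.93e-04). SOD2 (ENSOARG00000004523), the superoxide dismutase of mitochondria, had 78.6, 61.6 and 95.8 CPM at 3.5 h, against 135, 121 and 108 CPM at 0 h, without overlap, and pair differences of −0.78, −0.97 and −0.17, again smallest in number 3. Its fitted difference was −0.63 ± 0.13 (edgeR, adjusted p = 0.624; DESeq2, 0.0092), and numbers 1 and 2 alone passed both genes (edgeR, adjusted p = 0.0099 for TGM2 and 0.0121 for SOD2).

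TMEM129 (ENSOARG00000016060), a ubiquitin ligase of the endoplasmic reticulum, had 2.53, 1.42 and 1.14 CPM at 3.5 h, against 14.5, 2.93 and 12.3 CPM at 0 h. The 0 h libraries spread widely, number 2 lying near the 3.5 h values, and the pair differences were −2.50, −1.03 and −3.40 (fitted −2.52 ± 0.53; edgeR, adjusted p = 0.624; DESeq2, 1.93e-04). C1orf112 lay at −0.75 ± 0.14 (edgeR, adjusted p = 0.624; DESeq2, 0.00472) and the glycosyltransferase gene B4GALNT4 at −0.71 ± 0.16 (edgeR, 0.624; DESeq2, 0.0437). TMEM164 lay at −0.30 ± 0.067, past neither test (edgeR, adjusted p = 0.624; DESeq2, 0.0765). The unnamed ENSOARG00000013155 had 49.6, 40.97 and 61.4 CPM at 3.5 h, against 71.9, 81.8 and 87.5 CPM at 0 h, a difference of −0.67 ± 0.12 (edgeR, adjusted p = 0.605; DESeq2, 3.61e-04). ENSOARG00000012115 was at 0, 0 and 0.144 CPM at 3.5 h, against 0.224, 0.328 and 3.35 CPM at 0 h, and no fold is given for so few counts.

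**Figure D2:**
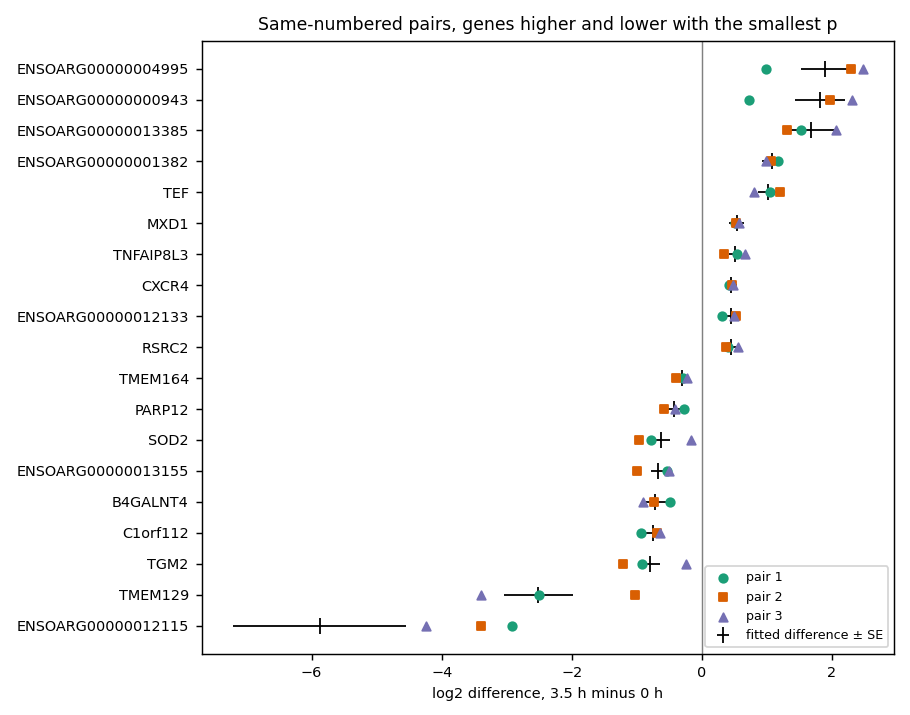
Log2 difference, 3.5 h minus 0 h, of reported genes from the 10 with the smallest p among those higher in all 3 pairs, top, and from the 10 among those lower, bottom; coloured points are the pairs and black ticks with bars the edgeR difference ± SE. Pairs of MXD1 and CXCR4 sit close together, while TGM2 and SOD2 have pair 3 nearest 0. The bottom gene, ENSOARG00000012115, had almost no counts at 3.5 h and its fitted value is no measure of size.

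Cholesterol synthesis genes were higher at 3.5 h in 17 of 18 tested members, though no member passed the test (20 were listed, and FDPS and SC5D had no match in the table). The median log2 difference was 0.24, with pair medians of 0.30, 0.25 and 0.18 for numbers 1, 2 and 3. Over all genes 49.7% were higher and 50.3% lower, and the median was −0.0011. 11 of the 18 members (61.1%) were higher in all 3 pairs, where 16.6% of all genes were, and 6 (33.3%) had an unadjusted p under 0.05 and were higher, where 3.41% of all genes did. The summed level of the members was 4209, 3808 and 5799 CPM at 3.5 h, against 3313, 3109 and 5052 CPM at 0 h, with number 3 highest at both times. Leaving out the 0 h library numbered 1 gave a median of 0.15, and with numbers 1 and 2 alone it was 0.27.

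The differences ran through the early and middle steps. ACAT2 (ENSOARG00000004539), which condenses acetyl-CoA at the start, had 316, 301 and 357 CPM at 3.5 h, against 247, 243 and 325 CPM at 0 h. The groups overlapped through number 3 at 0 h, and the pair differences were 0.35, 0.31 and 0.14 (fitted difference 0.26 ± 0.11; edgeR, adjusted p = 0.765). HMGCS1, the synthase that acts next, lay at 0.34 ± 0.18. After MVK, the next kinase PMVK and the decarboxylase MVD lay nearer 0, at 0.03 ± 0.18 and 0.11 ± 0.11, while IDI1, which isomerises the five-carbon unit, lay at 0.25 ± 0.17 and FDFT1, which makes squalene, at 0.24 ± 0.15.

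Past squalene the middle steps were higher and some late ones near 0. CYP51A1, the lanosterol demethylase, had 513, 500.4 and 728 CPM at 3.5 h, against 399, 389 and 598 CPM at 0 h and a difference of 0.33 ± 0.13 (edgeR, adjusted p = 0.762). TM7SF2 (ENSOARG00000012581), the sterol reductase that acts after it, had 148, 157 and 100.6 CPM at 3.5 h, against 108, 108 and 90.2 CPM at 0 h, with number 3 the lowest at both times. TM7SF2 had the smallest p of the list at a difference of 0.39 ± 0.09 (edgeR, adjusted p = 0.624; DESeq2, adjusted p = 0.0685). NSDHL, which removes methyl groups, lay at 0.26 ± 0.093, while EBP and DHCR7, a late isomerase and a late reductase, lay at 0.03 ± 0.12 and 0.07 ± 0.12.

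Genes that sense or take up sterols differed among themselves. INSIG1, which holds the SREBP complex in the endoplasmic reticulum, lay at 0.35 ± 0.16 and STARD4, a carrier of cholesterol, at 0.39 ± 0.13. The SREBP factor genes SREBF2 and SREBF1 lay at 0.02 ± 0.084 and −0.07 ± 0.12, and the 9 tested members had a median of −0.04 with 4 higher. Of 7 genes of sterol efflux and storage 5 were higher (median 0.11). ABCG1, a sterol exporter, had the largest difference of these, 0.35 ± 0.41, which came from number 1 (1.25, 0.20 and −0.04 in the 3 pairs). Fatty acid synthesis genes were higher in 10 of 12 with a median of 0.16 and pair medians of 0.32, 0.19 and 0.02. ACSS2, which makes acetyl-CoA from acetate, had 89.97, 68.8 and 84.6 CPM at 3.5 h, against 52.6, 47.8 and 71.6 CPM at 0 h (difference 0.50 ± 0.20; edgeR, adjusted p = 0.765, and 0.0365 with numbers 1 and 2 alone), and the desaturase SCD lay at 0.39 ± 0.21, with little difference in number 3 (0.04).

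**Figure D3:**
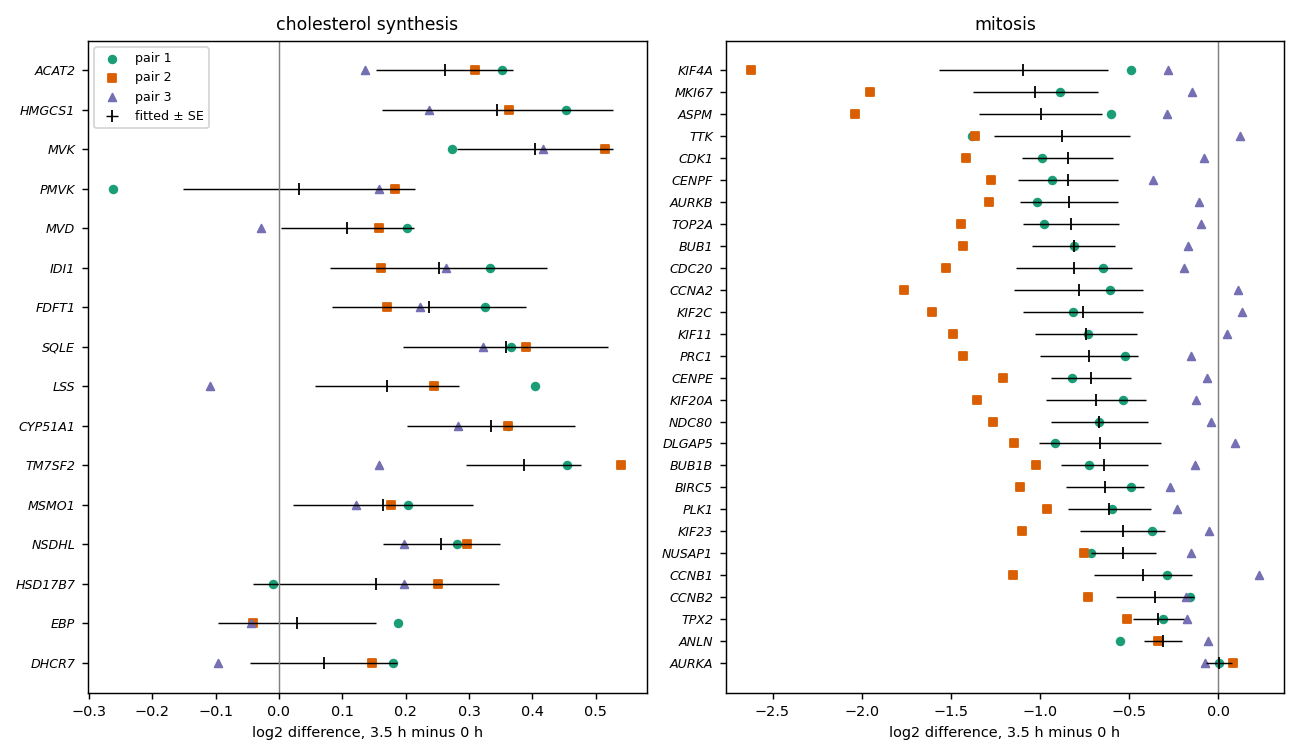
Log2 difference, 3.5 h minus 0 h, of reported members of 2 gene lists; coloured points are the 3 pairs and black ticks with bars the edgeR difference ± SE. Cholesterol genes, in pathway order from the top, lie right of 0 in most pairs; mitosis genes, sorted by fitted difference, lie mostly left of 0 in pairs 1 and 2, while pair 3 has a median of −0.12.

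Immediate early genes were higher in 16 of 19 tested members, with a median of 0.24, but not in the pair numbered 3, whose median was −0.11 against 0.30 and 0.38 in pairs 1 and 2. 6 members (31.6%) had an unadjusted p under 0.05 and were higher, where 3.41% of all genes did, and 0 passed. JUN (ENSOARG00000009999), a component of AP-1, had 69.2, 63.3 and 59.9 CPM at 3.5 h, against 52.7, 51.8 and 52.8 CPM at 0 h without overlap (difference 0.29 ± 0.087; edgeR, adjusted p = 0.728). FOSL1, another AP-1 component, had 46.997, 45.9 and 43.8 CPM at 3.5 h, against 35.2, 37.3 and 34.8 CPM at 0 h, also without overlap. KLF4, EGR2 and ZFP36, the last of which destabilises mRNA, lay at 0.48 ± 0.17, 0.40 ± 0.15 and 0.41 ± 0.12.

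The best known members varied more than they differed. FOS had 95.3, 310.3 and 84.4 CPM at 3.5 h, against 64.6, 155 and 129.5 CPM at 0 h, the library numbered 2 the highest at each time and pair 3 lower at 3.5 h (pair differences 0.56, 1.000 and −0.62). EGR1 had 102, 321 and 80.1 CPM at 3.5 h, against 87.2, 186 and 102 CPM at 0 h with the same order. FOSB had the largest fitted difference of the list, 0.61 ± 0.36, on pair differences of 0.82, 1.58 and −0.20. BTG2, an antiproliferative gene, was the member furthest below 0, at −0.28 ± 0.27.

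Feedback inhibitors of MAP kinase signalling were higher in 10 of 12 (median 0.14; pair medians 0.27, 0.12 and −0.07). DUSP4 and DUSP5, phosphatases of nuclear ERK, were the 2 with an unadjusted p under 0.05. DUSP4 (ENSOARG00000010272) had 32.8, 28.5 and 23.5 CPM at 3.5 h, against 18.9, 21.2 and 20.3 CPM at 0 h and DUSP5 (ENSOARG00000009537) had 32.7, 33.6 and 30.5 CPM at 3.5 h, against 19.96, 24.2 and 25.99 CPM at 0 h, both without overlap. The log2 differences were 0.47 ± 0.15 for DUSP4 and 0.46 ± 0.15 for DUSP5 (edgeR, adjusted p = 0.728 and 0.752). DUSP1 lay at 0.34 ± 0.22, higher in pairs 1 and 2 and lower in pair 3 (0.75, 0.68 and −0.27). It was called with numbers 1 and 2 alone (edgeR, adjusted p = 0.0365) but not over all numbers (edgeR, adjusted p = 0.815).

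In the EGF family 5 ligand genes lay above 0, and the 3 receptor genes and the ligand gene NRG1 (−0.14 ± 0.21) below it. HBEGF (ENSOARG00000017521), a membrane-anchored ligand of the EGF receptor, had 477, 531 and 386 CPM at 3.5 h, against 354, 361 and 328 CPM at 0 h, without overlap (difference 0.40 ± 0.13; edgeR, adjusted p = 0.752). The ligand genes TGFA, BTC, AREG and EREG lay at 0.46 ± 0.17, 0.39 ± 0.15, 0.26 ± 0.12 and 0.16 ± 0.15. ERBB2 (ENSOARG00000011865), the receptor that pairs with the other family members, had 119.8, 107 and 121 CPM at 3.5 h, against 130.2, 129.8 and 159.5 CPM at 0 h and was lower without overlap (−0.27 ± 0.074; edgeR, adjusted p = 0.728), while EGFR lay at −0.01 ± 0.13 and ERBB3 at −0.12 ± 0.15. Of the 9 tested members, 3 ligands were higher and ERBB2 was lower at an unadjusted p under 0.05, where 3.41% of all genes were higher and 3.09% lower.

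The loop genes of the circadian clock lay on both sides of 0. Of 13 tested members 7 were higher and 6 lower, the median was 0.05, and 0 had an unadjusted p under 0.05. CRY2 and CRY1, repressors of the loop, lay at 0.36 ± 0.18 and 0.20 ± 0.17, PER1 at 0.14 ± 0.15 and BHLHE41 at 0.25 ± 0.14, while ARNTL, the activator subunit, lay at −0.20 ± 0.13. Among 6 tested output genes TEF was the 1 with an unadjusted p under 0.05. NFIL3, which binds the same elements as TEF and represses from them, lay at 0.14 ± 0.15, WEE1, a cell cycle kinase under clock control, at 0.22 ± 0.18 and USP2 at 0.42 ± 0.48. DBP and HLF, the close relatives of TEF, did not reach the filter.

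Connexins and pannexins were lower in 7 of 9 tested members (median −0.19), GJA5 and GJB2 being the 2 that were higher. GJB2 (ENSOARG00000017089), connexin 26, had 66.1, 76.02 and 35.4 CPM at 3.5 h, against 46.6, 44.5 and 26.2 CPM at 0 h. Number 3 was low at both times, which made the groups overlap, and the pair differences were 0.50, 0.77 and 0.43 (fitted 0.57 ± 0.15; edgeR, adjusted p = 0.727). With numbers 1 and 2 alone GJB2 was called (edgeR, adjusted p = 0.0365). GJA1, connexin 43, the connexin with the highest count here, lay at −0.18 ± 0.17. PANX2 (ENSOARG00000019735), which forms large-pore channels, had 8.00, 8.16 and 8.56 CPM at 3.5 h, against 12.02, 11.1 and 10.6 CPM at 0 h and was lower without overlap (−0.45 ± 0.14; edgeR, adjusted p = 0.749). Genes of tight and adherens junctions were higher in 14 of 16, by a median of 0.08 (pair medians 0.14, 0.14 and −0.02), and 0 had an unadjusted p under 0.05.

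Interferon-induced genes were split between directions. Of 27 tested members, PARP12 included, 13 were higher and 14 lower, with a median of −0.07 and pair medians of −0.13, 0.04 and 0.10. IRF7, a transcription factor that amplifies the response, lay on the other side at 0.38 ± 0.13 and was higher in all pairs (0.18, 0.41 and 0.56). HERC6, annotated as a ubiquitin protein ligase family member, had 6.06, 5.82 and 7.77 CPM at 3.5 h, against 14.2, 15.1 and 6.18 CPM at 0 h, so that pairs 1 and 2 were lower and pair 3 was not. It was called with numbers 1 and 2 alone (edgeR, adjusted p = 0.0365) but not over all numbers (edgeR, adjusted p = 0.772).

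Mitosis genes had a median of −0.72 and were lower in 27 of 28 members. No member passed in edgeR or DESeq2 over all numbers, and 23 (82.1%) had an unadjusted p under 0.05 and were lower, where 3.09% of all genes did. 21 (75.0%) were lower in all 3 pairs, where 16.2% of all genes were. The pairs were unequal, with medians of −0.66, −1.28 and −0.12. The cell cycle genes CCNF and DEPDC1, outside the list and picked after their values were seen, lay at −1.14 ± 0.26 and −0.93 ± 0.22 and were called by DESeq2 (adjusted p = 0.0161 and 0.0437) but not by edgeR (adjusted p = 0.624 and 0.624). In these bulk samples fewer dividing cells and less RNA per dividing cell cannot be told apart.

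MKI67 (ENSOARG00000014562), a protein of the chromosome surface used as a marker of cycling cells, had 38.8, 15.7 and 156 CPM at 3.5 h, against 71.7, 61.03 and 172 CPM at 0 h. The libraries numbered 3 had the highest level at both times and differed little between them, whereas in number 2 the difference was −1.95. The fitted difference was −1.03 ± 0.35 (edgeR, adjusted p = 0.752). TOP2A (ENSOARG00000014321), the topoisomerase of dividing cells, had 19.3, 11.7 and 90.1 CPM at 3.5 h, against 37.9, 31.8 and 96.3 CPM at 0 h, in the same order. TOP2A and the spindle motor gene CENPE were the members called with numbers 1 and 2 alone (edgeR, adjusted p = 0.0365 for each). CDK1, the kinase that starts mitosis, lay at −0.84 ± 0.26, BUB1, a spindle checkpoint kinase, at −0.81 ± 0.23 and ASPM, a spindle pole protein, at −0.996 ± 0.34. AURKA, the kinase of spindle poles, was level, with 115, 119.7 and 113 CPM at 3.5 h, against 114, 113 and 119 CPM at 0 h (0.0038 ± 0.07). The summed level of the list was 517, 386 and 1339 CPM at 3.5 h, against 746, 677 and 1434 CPM at 0 h. Its median was −0.42 without the 0 h library numbered 2, −0.39 without number 2 at every time and −1.03 with numbers 1 and 2 alone. In a fit without the number as a block it was also −0.42, and on log2(FPKM + 1) values in limma −0.48.

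Genes of DNA replication were lower in 21 of 26 (median −0.18) and higher in pair 3 (pair medians −0.27, −0.38 and 0.19). That median was −0.04 without the 0 h library numbered 2, −0.29 without number 3 at 0 h, and −0.08 in the fit with no block. MCM2, a subunit of the replicative helicase, was the 1 member of the 26 (3.85%) with an unadjusted p under 0.05, near the 3.09% of all genes that were lower at that p. It had 12.8, 11.9 and 34.6 CPM at 3.5 h, against 18.2, 17.1 and 36.1 CPM at 0 h (difference −0.36 ± 0.13). Markers of smooth muscle, summed, were at 1815, 2869 and 1026 CPM at 3.5 h, against 1723, 2073 and 898 CPM at 0 h, and were higher in 5 of 5 with a median of 0.43 and 0 at an unadjusted p under 0.05. Without the 0 h library numbered 3 that median was 0.06, and without the 3.5 h library numbered 2 it was 0.12. TAGLN, an actin-binding protein of contractile cells, had 859, 1433 and 285 CPM at 3.5 h, against 756, 959 and 182 CPM at 0 h, number 2 being the highest and number 3 the lowest at each time. The smooth muscle marker CNN1 had 31.9, 73.2 and 3.05 CPM at 3.5 h, against 21.4, 42.4 and 3.43 CPM at 0 h. It was called with numbers 1 and 2 alone (edgeR, adjusted p = 0.0365) but not over all numbers (edgeR, adjusted p = 0.944). The muscle-specific filament gene DES was at 0 to 0.0342 FPKM at 3.5 h and at 0 at 0 h. Whether these markers had a part in the lower mitosis genes was not tested.

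**Figure D4:**
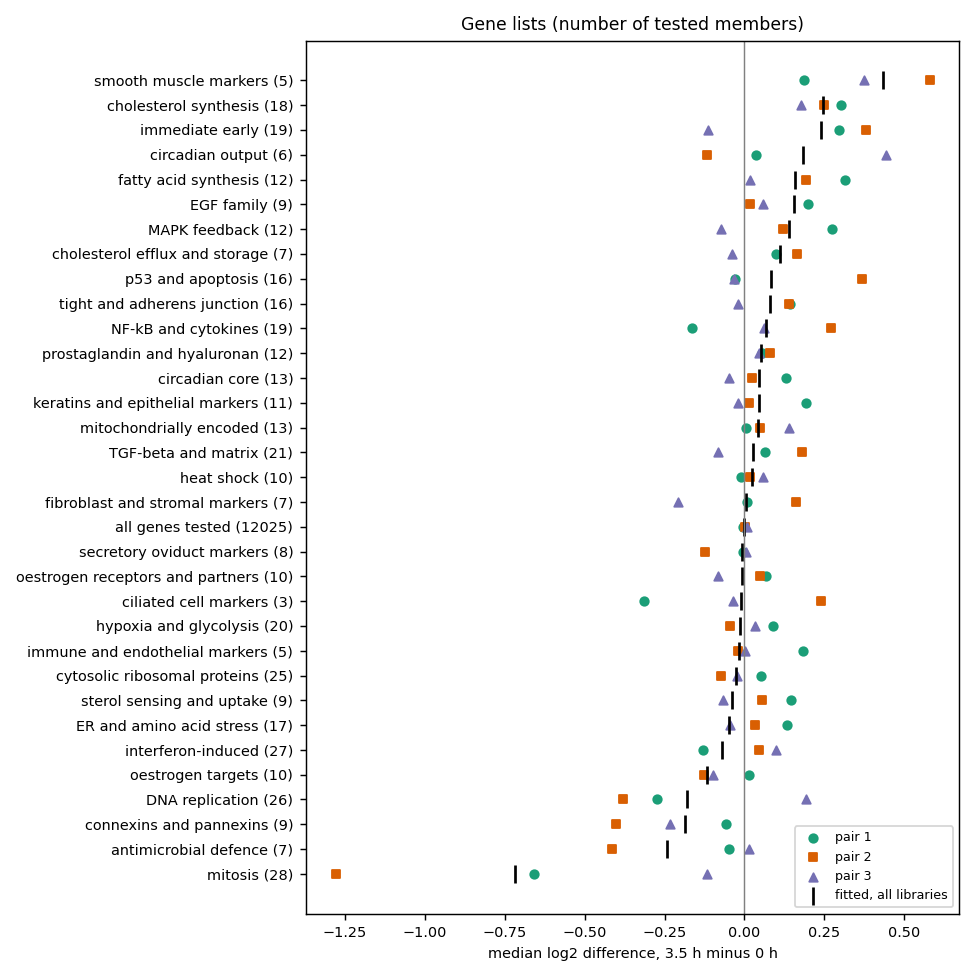
Median log2 difference, 3.5 h minus 0 h, of the tested members of each gene list (their number in brackets) and of all tested genes; coloured points are the 3 pairs and black ticks the fit over all libraries. Cholesterol synthesis has all 3 pairs right of 0 and mitosis all 3 left of it, while most lists have pairs on both sides.

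CYP1A1 and CYP1A2, chosen for mention after their values were seen, are neighbours on chromosome 18 and code for closely related cytochromes that oxidise aromatic compounds and also hydroxylate oestradiol. CYP1A1 (ENSOARG00000003423; chromosome 18, 32844396 to 32846884) had 15.5, 22.9 and 9.41 CPM at 3.5 h, against 8.72, 8.70 and 1.59 CPM at 0 h. The lowest 3.5 h library lay above the highest 0 h library, and the pair differences were 0.83, 1.39 and 2.54, the largest in number 3, whose 0 h level was the lowest. The fitted difference was 1.45 ± 0.33 (edgeR, adjusted p = 0.624; DESeq2, adjusted p = 0.00192). CYP1A2 (ENSOARG00000003346; chromosome 18, 32831356 to 32839372) had 5.56, 8.12 and 6.40 CPM at 3.5 h, against 2.44, 3.23 and 1.02 CPM at 0 h, also without overlap (difference 1.73 ± 0.40; edgeR, adjusted p = 0.624; DESeq2, 0.00472). As the 2 genes are alike in sequence, reads may be shared between them. CYP1B1, the third member of the family, had 16.2, 33.7 and 4.60 CPM at 3.5 h, against 10.3, 16.5 and 0.630 CPM at 0 h (1.09 ± 0.58; edgeR, adjusted p = 0.789), and number 3 was low at both times.

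The receptor that controls this family, AHR, lay at −0.04 ± 0.21, and other genes it is known to drive, TIPARP and NQO1, lay at 0.09 ± 0.13 and −0.13 ± 0.23. In the authors' deposited enrichment table of this comparison the 3 CYP1 genes made up the first Gene Ontology term, toxin metabolic process (p = 1.82e-07), of 249 terms. CYP1A1 and CYP1B1 stood with STS in the first of 44 KEGG pathways, steroid hormone biosynthesis (p = 4.23e-05), in the authors' deposited table. CYP1A1 and CYP1A2 are marked as significant in the authors' deposited table of genes. CYP1B1, counted in both terms, is not marked there (log2 ratio 0.97, p = 0.202 in the authors' deposited table). The authors' deposited table of genes marks 59 of 18340 as significant (0.322%), 28 higher and 31 lower, each with a log2 ratio of at least 1.01 in size and an unadjusted p of up to 0.0455, while 7 have a q-value under 0.05 (0.0382%). Of the 59, 37 have no symbol, 49 were tested here and 39 had the same direction in all 3 pairs. Of all tested genes 16.6% were higher and 16.2% lower in all 3 pairs, and the 59 were picked from these same libraries. GJA5 and TMEM129 are those of the 7 that have a symbol. ZC2HC1B came next by p in the authors' deposited table, with a log2 ratio of 4.81 and a q-value of 0.0536. It had 1.39, 1.26 and 60.2 CPM at 3.5 h, against 0.910, 1.05 and 0.305 CPM at 0 h, so that the 3.5 h library numbered 3 stood far above the other 5.

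Several further genes were called by DESeq2 with the block, or by edgeR with numbers 1 and 2 alone. CEMIP (ENSOARG00000015536), which breaks down hyaluronan, had 22.96, 21.5 and 19.9 CPM at 3.5 h, against 9.69, 11.7 and 10.8 CPM at 0 h, about equal within each group and without overlap (difference 0.99 ± 0.22; edgeR, adjusted p = 0.624; DESeq2, 0.00604). DKK1 (ENSOARG00000013619), a secreted inhibitor of Wnt signalling, had 4.32, 4.62 and 3.87 CPM at 3.5 h, against 17.8, 10.9 and 6.34 CPM at 0 h, lower without overlap (−1.44 ± 0.36; edgeR, adjusted p = 0.687; DESeq2, 0.0161). FABP3 (ENSOARG00000001603), a carrier of fatty acids, had 17.8, 15.7 and 19.2 CPM at 3.5 h, against 9.50, 8.33 and 10.7 CPM at 0 h with nearly equal pair differences, 0.90, 0.91 and 0.84 (edgeR, adjusted p = 0.624; DESeq2, 0.0223).

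PLA2G4A, the phospholipase that frees arachidonic acid for prostaglandins, had 131, 96.9 and 145 CPM at 3.5 h, against 95.4, 77.6 and 104 CPM at 0 h. Its difference was 0.42 ± 0.094 (edgeR, adjusted p = 0.624, and DESeq2, adjusted p = 0.0437). TGFB3, a ligand of the TGF-beta family, had 417, 460.2 and 242 CPM at 3.5 h, against 269.6, 308 and 145 CPM at 0 h and was higher by like amounts in each pair (0.63, 0.58 and 0.73; edgeR with numbers 1 and 2 alone, adjusted p = 0.0365). PLAT, the tissue plasminogen activator, which secretory cells release, had 967, 830.0 and 998 CPM at 3.5 h, against 657, 607 and 854 CPM at 0 h (0.40 ± 0.14; edgeR with numbers 1 and 2 alone, adjusted p = 0.0441). KRT5, a keratin of basal epithelial cells, had 109, 161 and 222 CPM at 3.5 h, against 60.4, 64.7 and 204 CPM at 0 h (edgeR with numbers 1 and 2 alone, adjusted p = 0.0121). All 3 KRT5 pairs were higher, by 0.86, 1.32 and 0.12, and number 3 was high at both times. These genes were named after their values were seen. Over all numbers TGFB3, PLAT and KRT5 passed neither edgeR (adjusted p = 0.728, 0.752 and 0.773) nor DESeq2 (adjusted p = 0.132, 0.363 and 0.843). Of the 34 DESeq2 calls 33 had 1 direction in all 3 pairs, which a fit blocked by number favours, and 10 have no symbol. Of all tested genes 16.6% were higher and 16.2% lower in all 3 pairs. Of the 28 calls from numbers 1 and 2 alone (0.233%), 22 had the same direction in pair 3, and 6 stood in both lists, which is 17.6% of the first and 21.4% of the second. The share of all tested genes with the same direction in pair 3 was not computed.

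The remaining lists had medians within 0.25 of 0, and 0 of their members passed in edgeR. TGF-beta and matrix genes had a median of 0.03 with 11 of 21 higher, NF-kB and cytokine genes 0.07 with 11 of 19, p53 and apoptosis genes 0.08 with 11 of 16, and prostaglandin and hyaluronan genes 0.05 with 9 of 12. Hypoxia and glycolysis genes lay at −0.02 with 9 of 20 higher, ER and amino acid stress genes at −0.05 with 8 of 17, heat shock genes at 0.02 with 7 of 10, and antimicrobial genes at −0.24 with 2 of 7. Cytosolic ribosomal protein genes lay at −0.03 with 10 of 25 higher, and mitochondrially encoded genes at 0.04 with 10 of 13. In edgeR 6.5% of all tested genes had an unadjusted p under 0.05. At that p, TGF-beta and matrix had 3 higher and 1 lower of 21 members, and NF-kB and cytokines 2 higher of 19. The p53 and apoptosis list had 1 higher of 16, and prostaglandin and hyaluronan 1 higher and 1 lower of 12. Ribosomal and mitochondrial genes had 1 higher each, of 25 and 13, and the other lists of this paragraph 0. Of the members at that p, INHBA, a subunit of activin, lay at 0.54 ± 0.20, and ITGB6, an integrin subunit that activates TGF-beta, at −0.24 ± 0.099. SLCO2A1, the prostaglandin transporter, lay at −0.60 ± 0.19 and FAS, a death receptor, at 0.30 ± 0.13. LIF, a cytokine, and BIRC3, an inhibitor of apoptosis, lay at 0.23 ± 0.095 and 0.28 ± 0.093.

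Apart from smooth muscle, described above, the marker lists of cell types had medians within 0.05 of 0. Pairs 1, 2 and 3 disagreed in some, with medians of −0.32, 0.24 and −0.04 for ciliated cell markers. For fibroblast and stromal markers they were 0.01, 0.16 and −0.21. With 1 library left out the stromal median ranged from −0.215 to 0.303 and the ciliated one from −0.214 to 0.113. Medians near 0 therefore do not show that the mix of cells was level. Keratins and epithelial markers had a median of 0.04 with 9 of 11 higher, secretory markers −0.01 with 3 of 8, ciliated cell markers −0.01 with 1 of 3, fibroblast and stromal markers 0.0036 with 4 of 7, and immune and endothelial markers −0.02 with 2 of 5. PAX8, a transcription factor of secretory cells, had 240.1, 187 and 215 CPM at 3.5 h, against 229, 199 and 211 CPM at 0 h (0.001 ± 0.10). CD14, a co-receptor for bacterial lipopolysaccharide, had 10.7, 7.32 and 10.7 CPM at 3.5 h, against 14.3, 11.6 and 19.1 CPM at 0 h and was lower without overlap (−0.65 ± 0.16; edgeR, adjusted p = 0.664).

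Against 1.5 h, the time before it, the 3.5 h libraries also had 0 called genes (edgeR, 0.0%), with 616 at an unadjusted p under 0.05 (5.12%). DESeq2 with the block called 7 and without it 3. CXCR4 was lower than at 1.5 h, at 113 ± 17.3 CPM at 3.5 h and 167 ± 5.74 CPM at 1.5 h (SD, n = 3 each), a log2 difference of −0.59 ± 0.094 (edgeR, adjusted p = 0.626). The L9 copy ENSOARG00000001382 lay higher, at 1.32 ± 0.15 (edgeR, adjusted p = 0.0874). For TEF the difference from 1.5 h was 0.25 ± 0.15, for CYP1A1 −0.35 ± 0.32, for TGM2 −0.09 ± 0.15, for GJA5 0.42 ± 0.51, for SQLE 0.33 ± 0.16 and for PARP12 −0.26 ± 0.095, none of them past the test.

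The course over the 4 times shares the 0 h libraries between comparisons, and its values are given side by side only. TEF averaged 7.65 ± 2.48 CPM at 0 h, 12.9 ± 3.21 CPM at 1.5 h, 15.9 ± 6.08 CPM at 3.5 h and 14.99 ± 5.57 CPM at 5.5 h. CXCR4 was highest at 1.5 h, where it was the 1 gene called against 0 h (0.00832%; difference 1.04 ± 0.095; edgeR, adjusted p = 0.00933), and lay at 0.45 ± 0.094 at 3.5 h and 0.36 ± 0.094 at 5.5 h. The cholesterol list had a median of 0.01 at 1.5 h, 0.24 at 3.5 h and 0.31 at 5.5 h. Its summed level in the 1.5 h library numbered 3, 3509 CPM, lay far below the 5052 to 6116 CPM of that number at the other times. The mitosis list had medians of −0.95, −0.72 and −0.61 at 1.5, 3.5 and 5.5 h. Its summed level in the 1.5 h library numbered 3, 798 CPM, also lay far below the 1339 to 1526 CPM of that number at the other times. In number 1 that sum was 544, 517 and 501 CPM at 1.5, 3.5 and 5.5 h, and in number 2 it was 386, 386 and 398 CPM.

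**Figure D5:**
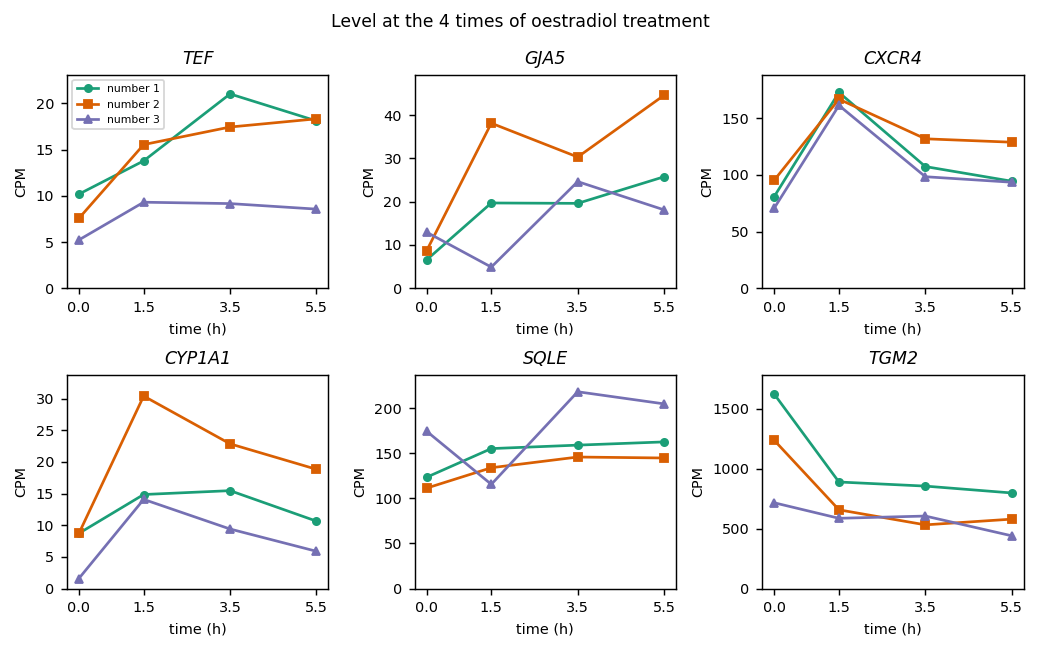
Level (CPM, from 0) of 6 genes at 0, 1.5, 3.5 and 5.5 h; each line is 1 library number. CXCR4 peaks at 1.5 h in all 3 numbers, TEF stays above its 0 h level at each later time, and for SQLE and GJA5 the 1.5 h library numbered 3 lies below the 0 h library of its number.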

How the data were processed

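RNA-sequencing libraries of sheep oviduct epithelial cells at 0, 1.5, 3.5 and 5.5 h of oestradiol (3 each) were grouped by title. The authors' deposited gene table gives, per the file headers, a whole-number count and a normalised level in FPKM (fragments per length of transcript and depth of library) for each gene and library. TopHat2 2.0.9 and Cufflinks are named in the submitters' processing notes. The build, the counting tool and the strand setting were not given in the sources used here. Coordinates follow the authors' tables. The authors' deposited table of 3.5 h against 0 h holds log2 ratios, p-values and q-values, made by a test that no header names. Per-sample columns not used numbered 42.

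Counts were fitted in edgeR 4.0.16 (R 4.3.3) with TMM scaling, time and the library number as a block, over all 12 libraries, so that the 1.5 and 5.5 h libraries add to the estimate of the spread. The quasi-likelihood F test was applied to genes averaging 1 FPKM or more, and p-values were adjusted by Benjamini-Hochberg over 12025 genes. A call is an adjusted p under 0.05. Each log2 difference is 3.5 h minus 0 h, and its SE is its size over the root of F. Pair values are log2 differences of CPM (counts scaled to library size with TMM) between libraries of 1 number. The number was kept as a block because deviations from the group means correlated in all 18 same-numbered pairs of libraries (r = 0.22 to 0.71), against −0.60 to 0.33 between numbers; the labels give only the shared number. Alternatives were DESeq2 1.42.0, limma 3.58.1 on log2(FPKM + 1) and log2(FPKM + 0.1), other scalings and filters, no block, 6 libraries and libraries left out. The fit was tested on simulated data. Figures used matplotlib 3.10.9.

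Of 18340 genes 4788 have no symbol in the table. RefSeq names (assembly ARS-UI_Ramb_v3.0, names only) matched 1145 of these by gene accession, 17 ambiguous names were skipped and 3643 are given by identifier.

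The comparison, its 5 marker genes and the gene lists were chosen with earlier results of these data known. Genes named are the 10 with the smallest p in each direction that agreed in sign in all 3 pairs, the 5 markers, ESR1, ESR2, PGR and GREB1, the leading members of each list, the first genes by p of the authors' table and the cell type markers, not all of which are printed. Further list members, and those said to be so, were picked after their values were seen. Promoter sequences were not used here, and some genes that the rule names are not reported here.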

Additional observations from a re-analysis of the deposited data

How the results depend on the processing

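The count of called genes at 3.5 h against 0 h was 0 under the block, under other scalings, other filters and limma on FPKM values, and with each library left out in turn. It was 1 in the 6 libraries alone with the block, 34 in DESeq2 with the block and 6 in DESeq2 without it. With numbers 1 and 2 alone it was 28, and that setting leaves out number 3, which stood apart on the first component. That fit covered the 4 times with 2 libraries at each. Matching fits without number 1 or without number 2 at every time were also made, and their counts of calls are not reported here. Calls from numbers 1 and 2 alone are therefore given without those of the other pairings. The cause of these unequal counts was not tested. Without the replicate block edgeR also called 0 genes, and 260 instead of 782 had an unadjusted p under 0.05; in edgeR the pairing changed no call, while in DESeq2 it changed the count as given. Against 1.5 h the count was 0, but 7 in DESeq2 with the block, 3 in DESeq2 without it, and 0 to 1 with 1 library left out. With 1 library left out the cholesterol median ranged from 0.152 to 0.344, fatty acid synthesis from 0.081 to 0.211, MAP kinase feedback from 0.076 to 0.241, connexins and pannexins from −0.261 to −0.099 and tight junction genes from 0.036 to 0.119. No result changed sign while called, and 426 gene values kept their side of the threshold and 27 passed it under an alternative. List medians stayed within the spread between pairs in 599 cases and moved beyond it in 41, that of antimicrobial genes between −0.759 and 0.213 with 1 library left out. The depth limits levels under 0.0619 CPM, and 3 libraries per group limit the rest.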
